A study of Mus musculus with 10 samples.

Results

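Nuclear receptors are transcription factors that bind DNA directly, and many of them change their activity when a small lipid-soluble ligand binds. The 31 genes described here encode the nuclear receptors outside the circadian clock that the liver is known to use or that belong to the same families. They were taken by gene symbol from the 41388 genes counted in each library, and the rule that picks their rows used no measured value. The members themselves were chosen with earlier results of these data known, so shares of members called are descriptions. 29 of the 31 passed the filter on low values, which asked for more than 1 CPM (reads scaled to the library total) in at least 1 library. The other 2, Vdr and Hnf4g, did not pass and are given below by their levels only.

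Liver RNA was sequenced from 12-week-old C57B/6J mice in 3 groups. WT Refed (n = 2) and WT Fasting (n = 3) mice carried loxP-flanked Nampt alleles (NAMPT fl/fl) and no Cre. NAMPT LKO Fasting mice (n = 5) carried the same alleles together with Albumin-cre, which drives the deletion in hepatocytes and leaves Nampt intact in the other liver cells. Per the labels, both fasting groups went without food for 24 h, and the WT Refed mice for 22 h before 2 h of refeeding, so that the fed state measured here is early refeeding. The study's own text describes the feeding of these mice differently, and the labels were followed. Each library is taken as 1 mouse, and the replicate numbers of the WT Refed mice are only names.

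Most receptors in this set act as pairs with a retinoid X receptor, as pairs with themselves, or alone, and recruit coactivators or corepressors according to whether ligand is bound. In liver, PPARA answers to fatty acids and drives fatty acid oxidation and ketone body synthesis, the LXRs (Nr1h3, Nr1h2) answer to oxysterols, FXR (Nr1h4) to bile acids, and CAR (Nr1i3) and PXR (Nr1i2) to foreign compounds and some endogenous steroids and bile acids. HNF4A holds up much of the gene program of the hepatocyte, and the glucocorticoid receptor (Nr3c1) carries the hormonal signal of fasting to gluconeogenic genes.

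Total counts ran from 30603080 to 43434139 per library. All 7 hepatocyte markers were detected in the libraries. Of 5 pancreas markers, 3 (Prss2, Cpa1, Amy2a5) were at 0 throughout and 1 was above 1 CPM in at least 1 library. The pancreas markers summed to 6.83 and 7.4 CPM in WT Refed, 6.16 to 6.7 in WT Fasting and 3.59 to 5.28 in NAMPT LKO Fasting. Nampt, the targeted gene, was at 76.9 and 66.8 TMM-normalized CPM in WT Refed, 62.1, 72.3 and 139 in WT Fasting, and 11.6 to 15.1 in the 5 NAMPT LKO Fasting livers, a log2 fold change of -2.81 ± 0.22 (SE; edgeR quasi-likelihood test, adjusted p = 0.00102) against WT Fasting. NAMPT LKO Fasting 5 stood apart from the other libraries. Genes of the mitochondrial genome took 21.1% of its counts against 7.42% to 12.9% elsewhere, and the deviation of its genes from the other 4 knockout livers followed GC content (Spearman rho = -0.55 across 13369 genes, a description within 1 library). Some of the results below are also given without this library.

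In length-scaled level (RPKM, mean of the 10 libraries), the receptors spanned from Hnf4a at 188.9 down to Vdr at 0.0162. Rxra, the retinoid X receptor partner shared by most of the ligand-sensing members, came next at 93.9, followed by Nr1h4 at 61, Nr1h3 at 43.3, Ppara at 38.9, Nr1i3 at 29.6, Nr1i2 at 26.5, Nr2f6 at 23.3, Nr0b2 at 19 and Nr1h2 at 17.1. The top of the order therefore held the hepatocyte identity factor, the common partner, and the fatty acid, sterol, bile acid and xenobiotic sensors. Receptors for sex steroids, retinoic acid and thyroid hormone lay lower, with Thrb at 5.86, Rara at 5 and Esr1 at 1.53. Vdr (the vitamin D receptor) had 0 to 16 reads per library and Hnf4g 0 to 10. RPKM divides by the whole exonic length, so the level of a gene whose exons overlap another gene is uncertain.

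**Figure D1:**
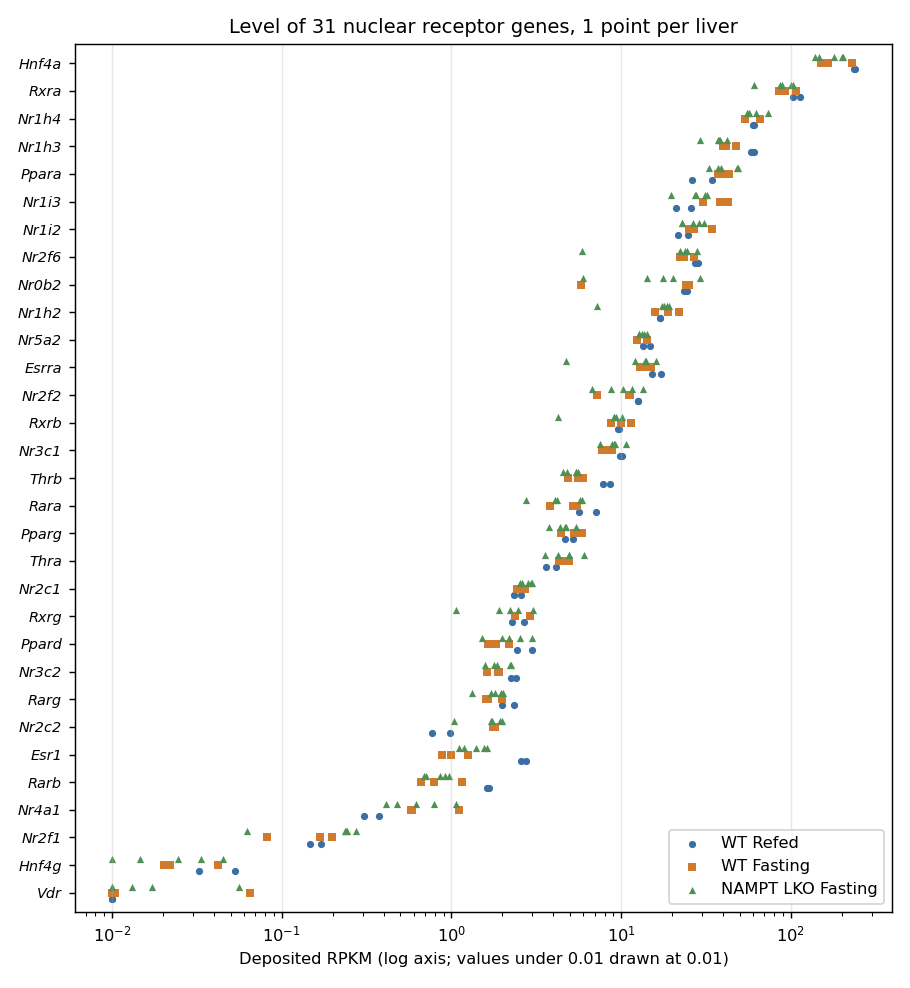
Deposited RPKM of the 31 receptor genes in each of the 10 livers, on a log axis, ordered by the mean over all livers, with 1 point per liver and a symbol per group. Hnf4a and Rxra lie at the top and Vdr and Hnf4g at the bottom, and NAMPT LKO Fasting 5 is the low triangle in rows such as Nr2f6, Nr1h2, Esrra and Rxrb.

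The neighbours Nr1i3 and Nr1i2 overlapped in their ranges over the libraries, as did Nr1h3 and Ppara, so their order is not resolved.

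The first question was which receptor genes themselves respond to the change from refeeding to fasting when hepatocyte Nampt is intact. Between WT Fasting and WT Refed livers, Nr1i3 and Nr2c2 rose and Esr1 and Thrb fell. These 4 were 13.8% of the 29 members tested, against 7.04% of the 13444 genes tested (946 genes, of which 360 or 2.68% higher and 586 or 4.36% lower, so that 38.1% of the calls were higher). With scaling by library size alone 26.4% of the calls were higher and 3 members passed, since Nr1i3 missed the threshold. The median log2 fold change of the 29 members was -0.13, beside 0.04 over all genes tested, and the median absolute change was 0.30 beside 0.27. The group ranges of 16 of the 29 (55.2%) did not overlap, beside 49.7% of all genes tested. The 2 shares are near each other. Leaving out WT Refed 1 left 1 of the 4 calls (Esr1) and leaving out WT Refed 2 left 0, the lone refed library then being assumed to vary like the other groups.

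**Figure D2:**
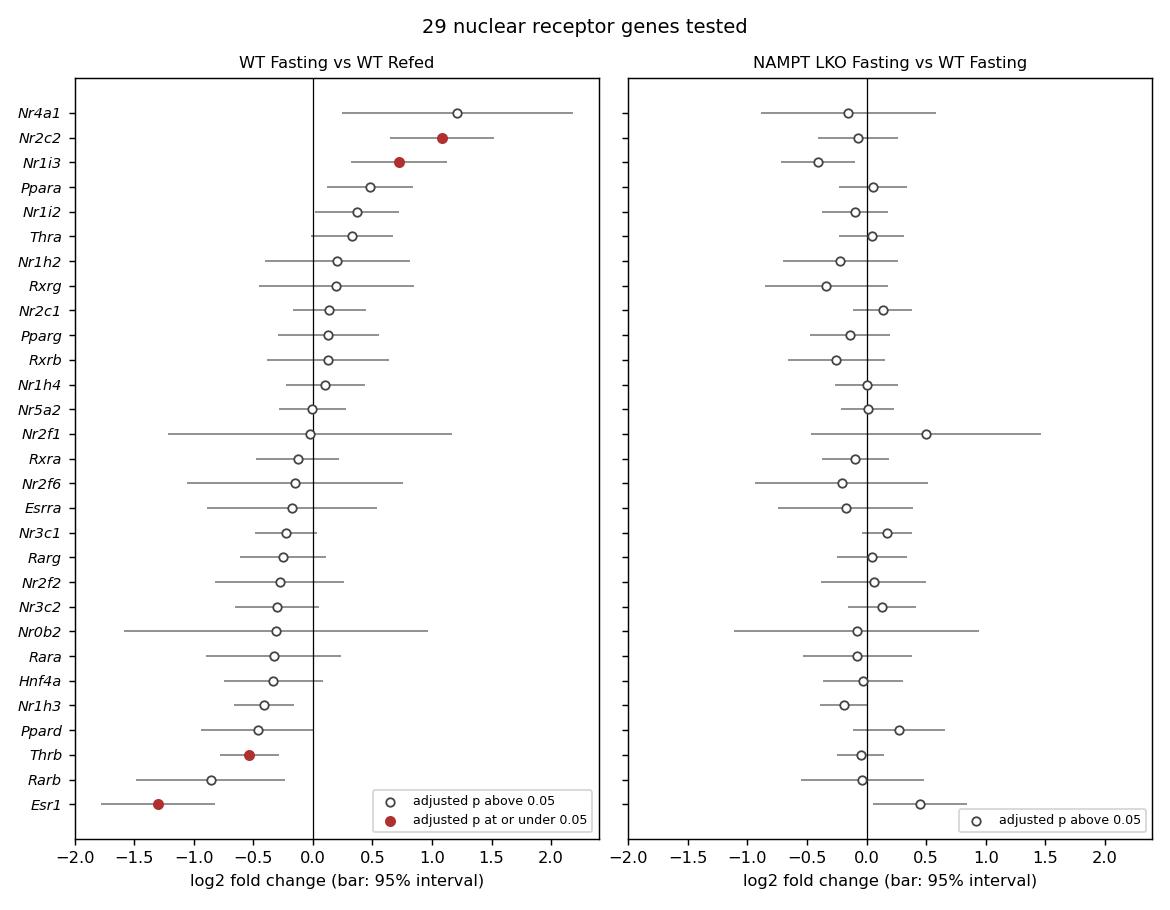
Log2 fold change (points) with its 95% interval (bars) for the 29 receptor genes tested, in WT Fasting against WT Refed (left) and NAMPT LKO Fasting against WT Fasting (right), from the edgeR quasi-likelihood fit. Filled points mark the 4 genes with an adjusted p at or under 0.05 on the left, and the right side has none.

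Among the xenobiotic receptors, Nr1i3 encodes CAR, which induces drug-metabolizing cytochrome P450 genes. Its level was 109 and 89.4 TMM-normalized CPM in WT Refed, 185, 174 and 131 in WT Fasting, and 139, 122, 116, 137 and 103 in NAMPT LKO Fasting. Each WT Fasting liver was above both WT Refed livers, and the third WT Fasting liver lay within the knockout range. The WT Fasting level exceeded the refed level by 0.72 ± 0.18 (log2 fold change ± SE, adjusted p = 0.0392). The call was lost without WT Fasting 1 (log2 fold change 0.62), WT Fasting 2 (0.67), NAMPT LKO Fasting 2 (0.72), NAMPT LKO Fasting 3 (0.71), WT Refed 1 (0.86) or WT Refed 2 (0.58), the change staying positive in each case. Exons of Tomm40l, on the opposite strand, cover 74.9% of the exonic length of Nr1i3 (chr1:171213970-171220701, GRCm38, plus strand). The strand setting of the counting is not given in the sources used here, so reads of the pair cannot be told apart with certainty. Tomm40l itself was at 2.5 and 3.84 CPM in WT Refed and 5.95, 6.42 and 3.82 in WT Fasting, a log2 fold change of 0.77 ± 0.29 (adjusted p = 0.151).

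Nr1i2 encodes PXR, the other main xenobiotic sensor. It was at 52.7 and 60.9 CPM in WT Refed, 63, 71.4 and 85.6 in WT Fasting and 57.2 to 75.7 (median 68.5) in NAMPT LKO Fasting. The WT groups did not overlap, but the log2 fold change of 0.37 ± 0.16 did not pass (adjusted p = 0.199).

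Nr2c2 encodes TR4 (testicular receptor 4), an orphan receptor that binds direct repeats of the half-site AGGTCA. It was at 8.59 and 6.8 CPM in WT Refed, 16.2, 16.7 and 16.1 in WT Fasting, and 15.6, 15.6, 17.6, 17.7 and 11.2 in NAMPT LKO Fasting. All 8 fasted livers, with or without Cre, were above both refed livers, and the 3 WT Fasting livers were close to each other. In WT Fasting against WT Refed it rose by a log2 fold change of 1.08 ± 0.20 (adjusted p = 0.0102). It was 1.26 without WT Refed 1 and 0.92 without WT Refed 2, and missed the threshold in both cases. Exons of other genes, mainly Mrps25, cover 50.9% of the exonic length of Nr2c2 (chr6:92091390-92173057, plus strand). Mrps25 was lower in the fasted livers, at 12.8 and 13.1 CPM in WT Refed and 8.69, 9.38 and 12 in WT Fasting, with a log2 fold change of -0.37 ± 0.19 that did not pass (adjusted p = 0.278). Its relative Nr2c1 (TR2) had a log2 fold change of 0.14 ± 0.14 (adjusted p = 0.604).

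Esr1 encodes estrogen receptor alpha. It was at 33.6 and 36.1 CPM in WT Refed, 13.3, 12.4 and 16.7 in WT Fasting, and 16, 18.9, 20.7, 15.1 and 26 in NAMPT LKO Fasting. Every fasted liver was below both refed livers, with NAMPT LKO Fasting 5 nearest to them. In WT Fasting against WT Refed it had a log2 fold change of -1.30 ± 0.22 (adjusted p = 0.00641), and among the 29 members this was the lowest p in that comparison. Without WT Refed 2 it was -1.25 and missed the threshold. Esr1 lies at chr10:4611593-5005614 on the plus strand.

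Thrb encodes the thyroid hormone receptor that predominates in hepatocytes. It was at 53.8 and 49.4 CPM in WT Refed, 38.2, 33.3 and 35.4 in WT Fasting, and 35, 31.3, 34.3, 36.6 and 34.9 in NAMPT LKO Fasting. The fasted livers formed 1 narrow range below the refed livers. Thrb had a log2 fold change of -0.53 ± 0.11 (adjusted p = 0.0176) in WT Fasting against WT Refed. The call was lost without WT Fasting 2 (-0.49), WT Refed 1 (-0.47) or WT Refed 2 (-0.60). Thra, its paralog, had a log2 fold change of 0.33 ± 0.16 (adjusted p = 0.24) and lay higher in all 3 WT Fasting livers (20.8 to 22.5 CPM) than in both refed livers (16 and 18.3 CPM). Thrb lies at chr14:17660960-18038088 on the plus strand.

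Sequence just before the RefSeq start (GRCm38.p6, plus strand) is shown for the called members, as the place where a shared motif could be looked for. Capitals mark the E-box CACGTG in Nr1i3 and the half-site AGGTCA in Thrb, and Nr2c2 has none of the motifs searched. The Thrb window stops where an annotated exon begins, and none is shown for Esr1, whose window lies in an annotated exon. The RefSeq start of Nr2c2 lies 1043 bases from the deposited gene start, so its window falls within the deposited gene.
Nr1i3, chr1:171213720-171213969: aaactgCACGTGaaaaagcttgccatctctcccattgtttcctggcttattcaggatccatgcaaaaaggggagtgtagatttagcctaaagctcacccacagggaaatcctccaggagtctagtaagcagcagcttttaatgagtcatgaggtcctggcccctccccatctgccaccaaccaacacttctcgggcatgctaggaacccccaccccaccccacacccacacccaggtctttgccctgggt
Nr2c2, chr6:92092183-92092432: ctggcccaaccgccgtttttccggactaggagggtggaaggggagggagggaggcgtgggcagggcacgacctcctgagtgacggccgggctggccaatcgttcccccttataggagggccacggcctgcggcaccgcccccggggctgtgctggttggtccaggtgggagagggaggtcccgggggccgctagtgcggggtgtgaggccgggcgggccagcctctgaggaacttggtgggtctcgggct
Thrb, chr14:17660710-17660891: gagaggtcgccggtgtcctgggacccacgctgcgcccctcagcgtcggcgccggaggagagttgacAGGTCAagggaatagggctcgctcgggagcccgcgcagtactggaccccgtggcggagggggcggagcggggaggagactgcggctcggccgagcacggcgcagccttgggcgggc

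For 28 of the 31 members a RefSeq start was matched, and the 250 bases before it were searched on both strands. That start lay up to 26927 bases (Nr1h4) from the deposited gene start, so not every window lies just before the counted gene. The half-site AGGTCA was found in 5 of the 28 (Pparg, Nr1h4, Nr5a2, Thrb and Rarg) and in 14% of all 32851 promoter windows of that length. The E-box CACGTG was found in 2 (Nr0b2 and Nr1i3), beside 6.02% of all windows. The DR1 element (a pair of half-sites 1 base apart, 0.033% of all windows, each also holding the half-site), the cAMP response element TGACGTCA (1.55%) and the FOXO site GTAAACA (3.17%) were found in 0 of the 28. Such a match is a description of letters and not a bound site. The windows of the members were richer in GC, with a median of 64.2% beside 52.4% over all windows.

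Among the fatty acid receptors, Ppara was at 126 and 96.6 CPM in WT Refed, 157, 148 and 160.3 in WT Fasting, and 140.1, 188, 179, 149 and 149 in NAMPT LKO Fasting. Every fasted liver was above both refed livers, which themselves lay far apart. Its log2 fold change in WT Fasting against WT Refed was 0.48 ± 0.16 and did not pass after adjustment (adjusted p = 0.107), though it did by limma voom (0.47, adjusted p = 0.0266). Ppard, which is expressed in many tissues, had a log2 fold change of -0.46 ± 0.21 (adjusted p = 0.231), and Pparg, the receptor of fat storage, 0.13 ± 0.19 (adjusted p = 0.748).

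Nr1h3 encodes LXR alpha, the main oxysterol receptor of hepatocytes. It was at 147 and 140.3 CPM in WT Refed, 98.2, 109 and 116 in WT Fasting, and 92.6, 96.4, 102, 93.8 and 86.6 in NAMPT LKO Fasting. All fasted livers were below both refed livers. The log2 fold change of -0.41 ± 0.11 in WT Fasting against WT Refed missed the threshold (adjusted p = 0.0545), as it did by edgeR's exact test (adjusted p = 0.082) and in 9 of the 10 fits that left out 1 library. At nearly the same size it passed by limma voom (-0.43, adjusted p = 0.00208), by DESeq2 (-0.42, adjusted p = 0.00673), in the edgeR fit of the 2 groups alone (-0.41, adjusted p = 0.0483) and without NAMPT LKO Fasting 5 (-0.41, adjusted p = 0.014). It also passed with the GC correction, chosen after seeing the data (-0.49, adjusted p = 0.0246). Nr1h2, which encodes LXR beta, had a log2 fold change of 0.20 ± 0.28 (adjusted p = 0.714).

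Nr1h4 encodes the bile acid receptor FXR. It was at 133 and 132 CPM in WT Refed, 149, 158 and 121 in WT Fasting, and 126 to 165 (median 144) in NAMPT LKO Fasting, so that the groups overlapped. Its log2 fold change in WT Fasting against WT Refed was 0.11 ± 0.15 (adjusted p = 0.735). Nr0b2 encodes SHP, a receptor without a DNA-binding domain that FXR induces and that represses other receptors. It was at 26.3 and 25.4 CPM in WT Refed, 6.42, 28.5 and 27.7 in WT Fasting, and 15.8, 22.7, 32, 19.9 and 7.93 in NAMPT LKO Fasting. WT Fasting 1 and NAMPT LKO Fasting 5 were the lowest, and the fasted livers lay on both sides of the refed ones. Its 95% interval was the widest of the 29 members in this comparison, from -1.59 to 0.97, and the sign turned to 0.12 without WT Fasting 1. Nr5a2 (LRH-1), which SHP represses at bile acid synthesis genes, ranged only from 48.1 to 61.3 CPM over the 10 livers.

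Hnf4a was at 1107 and 1085 CPM in WT Refed, 714, 829 and 1071 in WT Fasting, and 694, 964, 952, 862 and 792 in NAMPT LKO Fasting. Both refed livers were above every fasted one, with WT Fasting 3 just below them. The log2 fold change of -0.33 ± 0.19 did not pass (adjusted p = 0.332), while limma voom gave -0.42 (adjusted p = 0.0425). Rxra, the partner, was at 590.3 and 537 CPM in WT Refed, 493, 486 and 570 in WT Fasting, and 389 to 543 (median 473) in NAMPT LKO Fasting, with a log2 fold change of -0.13 ± 0.16 (adjusted p = 0.69). Rxrb and Rxrg had log2 fold changes of 0.12 ± 0.23 and 0.20 ± 0.29, neither past the threshold.

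Nr3c1, the glucocorticoid receptor gene, was at 69.8 and 72.3 CPM in WT Refed, 64.7, 59.6 and 57.9 in WT Fasting, and 64, 67.3, 66.6, 79 and 65.3 in NAMPT LKO Fasting. The WT groups did not overlap, yet the log2 fold change was only -0.23 ± 0.12 and did not pass (adjusted p = 0.29). Nr3c2, the mineralocorticoid receptor gene, had -0.30 ± 0.16 (adjusted p = 0.297).

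Rarb, a retinoic acid receptor gene that is itself a target of retinoic acid, was at 4.71 and 4.86 CPM in WT Refed, 2.36, 3.64 and 1.94 in WT Fasting and 2.02 to 3.06 in NAMPT LKO Fasting. Its log2 fold change of -0.86 ± 0.29 in WT Fasting against WT Refed did not pass (adjusted p = 0.1), though it did by limma voom (-0.77, adjusted p = 0.018) and DESeq2 (-0.87, adjusted p = 0.0452). Of Rarb, 59.1% of the exonic length overlaps exons of Top2b on the opposite strand. Nr4a1, an early-response orphan receptor, was at 0.884 and 0.727 CPM in WT Refed and 1.42, 1.5 and 2.68 in WT Fasting, from 32 to 120 reads. Its log2 fold change of 1.21 ± 0.44 did not pass (adjusted p = 0.13). At an unadjusted p under 0.05, 9 members were counted (22.3% of all genes): the 4 called ones with Ppara, Nr1i2 and Nr4a1 higher, and Nr1h3 and Rarb lower. Rarb and Nr4a1 were singled out after their values were seen. Nr4a1 was under 1 CPM in both refed livers and passed the filter on low values only through fasted livers. Its place among these 9 members, and among the 16 whose WT ranges did not overlap, is therefore tied to the filter and lends no support.

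**Figure D3:**
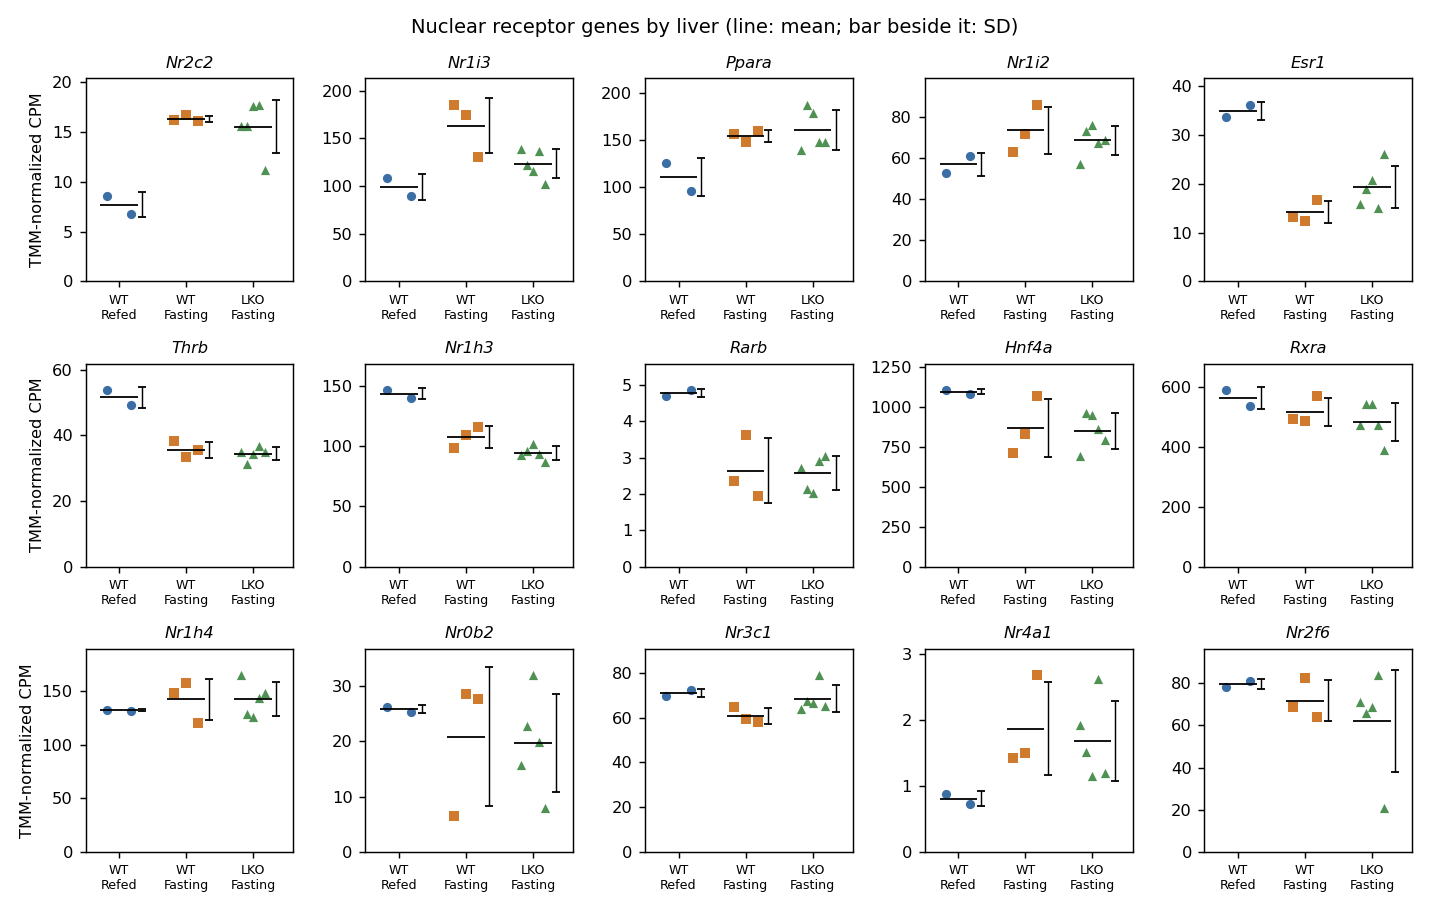
TMM-normalized CPM of 15 receptor genes in each liver (points), with the group mean (line) and SD (bar beside the points), each panel starting at 0. Nr2c2 separates all fasted from refed livers upward, Esr1, Thrb and Nr1h3 downward, and Nr1i3 is highest in WT Fasting. Nr2f6 shows the low value of NAMPT LKO Fasting 5.

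The next question was whether loss of hepatocyte NAMPT, the enzyme that makes nicotinamide mononucleotide for NAD+ salvage, changes these receptor genes in the fasted liver. No member passed in NAMPT LKO Fasting against WT Fasting by edgeR's quasi-likelihood test, in which Nampt was the only gene of 13444 called (0.00744%). The number of members called was also 0 by limma voom, edgeR's exact test and DESeq2. At an unadjusted p under 0.05 there were 2 members, Nr1i3 and Esr1 (6.9% of those tested), beside 6.03% of all genes. The median absolute log2 fold change was 0.13 for the members and 0.14 for all genes, and the group ranges of 0 of 29 members failed to overlap, beside 3.99% of all genes. The median SE of a member was 0.15 on the log2 scale.

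Nr1i3 had the lowest p among the members. Its mean was 163 ± 28.8 CPM (SD, n = 3) in WT Fasting and 123 ± 15.2 (SD, n = 5) in NAMPT LKO Fasting, between that and the 99.1 ± 13.7 (SD, n = 2) of WT Refed. The log2 fold change against WT Fasting was -0.41 ± 0.14 (adjusted p = 0.798), and the groups overlapped, WT Fasting 3 lying within the knockout range. Tomm40l, which shares its exons, moved the same way by -0.56 ± 0.23 (adjusted p = 0.827).

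Esr1 was the second, at 14.2 ± 2.27 CPM (SD, n = 3) in WT Fasting and 19.3 ± 4.36 (SD, n = 5) in NAMPT LKO Fasting. Its log2 fold change was 0.45 ± 0.18 (adjusted p = 0.827), and 0.32 without NAMPT LKO Fasting 5, the highest of the 5. Nr1h3 was the third at -0.19 ± 0.09 (adjusted p = 0.837).

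For the remaining named receptors the 95% intervals of the difference bound its size. The log2 fold change of Ppara was 0.05 with an interval of -0.23 to 0.34, that of Hnf4a -0.03 with -0.36 to 0.30, and that of Nr1h4 0.001 with -0.27 to 0.27. Rxra had -0.09 with -0.37 to 0.19, Thrb -0.05 with -0.25 to 0.15, Nr2c2 -0.07 with -0.41 to 0.27, and Nr1i2 -0.10 with -0.38 to 0.18. Nr3c1 had 0.17 with -0.04 to 0.38. The interval of Nr0b2 was wide, from -1.12 to 0.95, and bounds little.

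The summed cholangiocyte markers, and the low pancreas sum given above, did not overlap between these 2 groups. The stellate cell and the Kupffer cell and macrophage sums did. The 6 cholangiocyte markers, all of them detected and 5 above 1 CPM, summed to 15.3 to 21.2 CPM in WT Fasting, 35 to 51.2 in NAMPT LKO Fasting and 20.7 to 23.2 in WT Refed. The 8 stellate cell markers summed to 192 to 250 CPM in WT Fasting and 214 to 311 in NAMPT LKO Fasting, and the 8 Kupffer cell and macrophage markers to 229 to 488 and 169 to 378. Their part in the differences of Nr1i3 and Esr1 was not tested. In whole liver, fewer cells of a type and less RNA per cell cannot be told apart.

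NAMPT LKO Fasting against WT Refed differs in feeding and genotype together, so their parts cannot be told apart. It shares its control libraries with the first comparison. Here 6 of 29 members passed (20.7%), beside 11.2% of all genes tested (4.65% higher and 6.58% lower). Nr2c2 (log2 fold change 1.01 ± 0.19) and Ppara (0.53 ± 0.15) rose, and Esr1 (-0.85 ± 0.19), Thrb (-0.58 ± 0.10), Nr1h3 (-0.60 ± 0.10) and Rarb (-0.90 ± 0.26) fell. The calls of Ppara (adjusted p = 0.0454) and Rarb (adjusted p = 0.0464) were close to the threshold. Ppara passed in only 2 of the 10 fits that left out 1 library and Rarb in 3, whereas Nr2c2 missed it only without WT Refed 2 and Nr1h3, Esr1 and Thrb only without WT Refed 1 or WT Refed 2. Without WT Refed 2, where the number of members called was 0, the values were 0.86 for Nr2c2, 0.36 for Ppara, -0.79 for Esr1, -0.64 for Thrb, -0.63 for Nr1h3 and -0.87 for Rarb, and without WT Refed 1 only Nr2c2 passed. Ppara also missed it with scaling by library size alone, with both other filters on low counts and in the fit of the 2 groups alone. Nr1i3 had 0.31 ± 0.17 and did not pass in this comparison, though it did by limma voom (0.35, adjusted p = 0.0292). Whether its fasting difference depended on Nampt cannot be told, since the series has no refed knockout livers. The test of NAMPT LKO Fasting against WT Fasting given above, which Nr1i3 did not pass, compares fasted livers only.

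NAMPT LKO Fasting 5 was the lowest of its group for many GC-rich receptor genes. Over the 29 members its log2 deviation from the mean of the other 4 knockout livers fell with transcript GC content (rho = -0.69, a description across genes of 1 library). Nr2f6 (EAR2), with 67.3% GC, lay 1.81 below the others on the log2 scale, a value of -1.81. Nr1h2 was at -1.09, whereas Nr5a2, with 43.2% GC, was at 0.30. Nr2f1 (COUP-TFI) was at -1.59, from 12 reads against 36 to 46 in the other 4 knockout livers. It passed the filter on low values only through those 4 livers. Its gap is therefore tied to the filter and lends no support, though it is 1 of the 29 genes behind the rho. The other 4 knockout livers had rho between 0.22 and 0.56 over the same genes, each being set against a mean that includes NAMPT LKO Fasting 5. Without that library, 5 members were called in WT Fasting against WT Refed (Nr1h3 added, 2231 genes) and 0 in NAMPT LKO Fasting against WT Fasting.

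**Figure D4:**
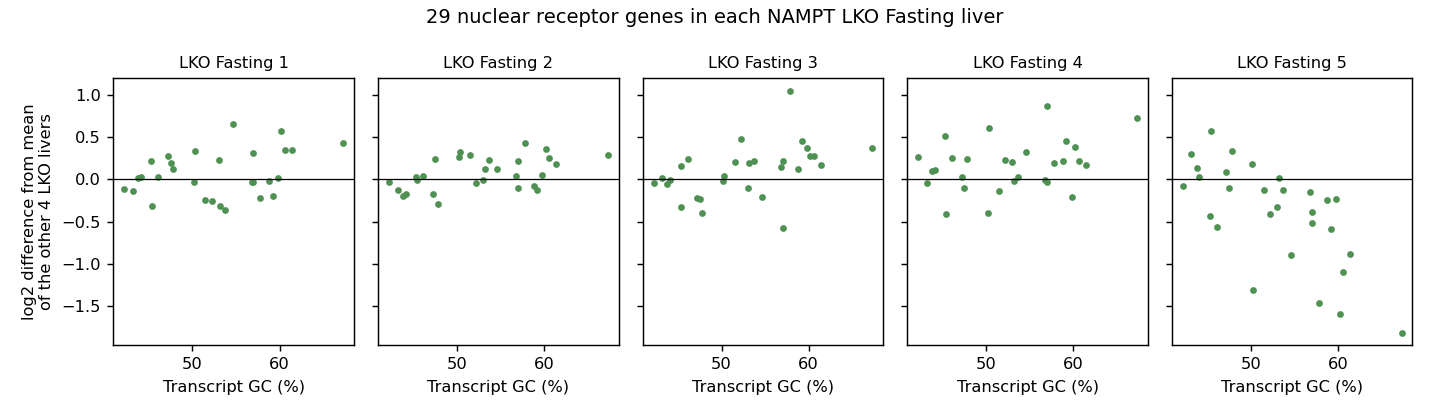
Log2 difference of each of the 29 receptor genes from the mean of the other 4 NAMPT LKO Fasting livers, against transcript GC content in percent, 1 panel per knockout liver. In liver 5 the values fall to -1.81 at the GC-rich end (Nr2f6, 67.3% GC), whereas in the others they run from -0.57 to 1.05.

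Target genes of the receptors were described from lists of known targets. These lists were chosen with earlier results of these data known, so their shares are descriptions and not independent of the data. The glucocorticoid receptor targets moved most in WT Fasting against WT Refed: 7 of 10 rose and 0 fell, beside 2.68% of all genes higher and 4.36% lower, with a list median log2 fold change of 1.07 beside 0.04 over all genes. They included Pck1 (1.4 ± 0.17) and G6pc (3.21 ± 0.50), the gluconeogenic enzymes, Igfbp1 (7.65 ± 1.14), a secreted IGF-binding protein, and Dusp1 (1.54 ± 0.26), a phosphatase of MAP kinases. Tat (0.97 ± 0.32), Fkbp5 (0.20 ± 0.41) and Klf9 (0.18 ± 0.18) did not pass. Whether the receptor had a part in these changes was not tested. The count was 2 without WT Refed 1, 1 without WT Refed 2 and 4 without WT Fasting 2, and 5 to 8 in the other fits that left out 1 library. The receptor gene Nr3c1 itself had a log2 fold change of -0.23.

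Of 16 PPARA targets, 4 rose and 0 fell, beside 2.68% of all genes higher and 4.36% lower, with a median of 0.46. These were Pdk4 (3.00 ± 0.51), which restrains pyruvate oxidation, the hormone gene Fgf21 (2.92 ± 0.53), the lipid droplet coat gene Plin2 (1.09 ± 0.18) and Angptl4 (2.38 ± 0.21), an inhibitor of lipoprotein lipase. Without WT Refed 1 the count was 2 and without WT Refed 2 it was 1 (Angptl4), and it was 4 to 6 in the other fits. In the knockout against WT Refed 8 of the 16 rose, beside 4.65% of all genes. That count was 2 when WT Refed 1 or WT Refed 2 was left out, and 5 when WT Fasting 2, NAMPT LKO Fasting 2 or NAMPT LKO Fasting 4 was left out. Cpt1a, which admits fatty acids to mitochondria, had 0.67 ± 0.19 in WT Fasting against WT Refed and missed the threshold (adjusted p = 0.0616).

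Of 10 LXR targets 3 rose (Abcg8 at 1.45 ± 0.27, Lpcat3 at 1.20 ± 0.16 and Mylip at 0.91 ± 0.21) and 0 fell. Abcg8 exports sterols into bile, Lpcat3 remodels phospholipids and Mylip promotes degradation of the LDL receptor. The LXR count fell to 1 without WT Refed 1 and 0 without WT Refed 2, and Mylip also missed the threshold when any one of the WT Fasting livers was left out. The level of Nr1h3 lay lower in the same livers. Of 6 FXR targets tested 1 rose, the phospholipid transporter gene Abcb4 (0.77 ± 0.16), and of 10 CAR and PXR targets 1 rose, Por (0.77 ± 0.19), the reductase that supplies electrons to cytochromes P450. Of all genes tested 2.68% rose, and with lists this short a single call is not a result about the list. Abcb4 missed the threshold when WT Refed 1 or WT Refed 2 was left out, and Por when any one of the 5 WT libraries was left out. Without NAMPT LKO Fasting 5, Cyp8b1 of the FXR targets and Abcc3 of the CAR and PXR targets also passed as higher, and Osgin1 of the FXR targets as lower. The lists were not split into genes that a receptor induces and genes that it represses. By edgeR's quasi-likelihood test the count in this comparison was 0 for the 10 HNF4A, 6 thyroid hormone receptor and 7 retinoic acid receptor targets tested. At an unadjusted p under 0.05 it was 0, 3 and 3, by limma voom 2, 3 and 4, by edgeR's exact test 0, 1 and 1, and by DESeq2 0, 3 and 3. Of the 13444 genes tested, 22.3% passed at the unadjusted p, and 3331 by limma voom, 1198 by edgeR's exact test and 1646 by DESeq2.

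In NAMPT LKO Fasting against WT Refed, 3 of the 7 retinoic acid receptor targets tested fell (Cyp26a1, Cyp26b1 and Stra6l) and 1 rose (Dhrs3). Over all genes tested, 6.58% were lower and 4.65% higher in this comparison. The Cyp26 enzymes clear retinoic acid, and Cyp26a1 fell by 2.17 on the log2 scale (SE 0.49, adjusted p = 0.0177). Of the 6 thyroid hormone receptor targets, Thrsp (-1.35 ± 0.30) and Bcl3 (-1.19 ± 0.29) fell and Gpd2 (0.81 ± 0.21) rose. Leaving out WT Refed 1 left only Stra6l of these calls, and leaving out WT Refed 2 left 0. Dhrs3 missed the threshold in 7 of the 10 fits that left out 1 library, and Bcl3 and Gpd2 also missed it when NAMPT LKO Fasting 1 or 2 was left out, as did Bcl3 without NAMPT LKO Fasting 3.

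Between the fasted groups 0 genes of any of these lists passed by edgeR's quasi-likelihood test or by limma voom, and only Cyp2b10 did by edgeR's exact test and DESeq2. Cyp2b10, a standard CAR target, had the lowest p of the listed genes. It was at 17.9, 68.2 and 31 CPM in WT Fasting, 6.52, 11.5, 4.85, 11.2 and 14.8 in NAMPT LKO Fasting, and 14.1 and 10.7 in WT Refed. All 5 knockout livers were below the 3 WT Fasting livers, with a log2 fold change of -2.0 ± 0.42 that did not pass (adjusted p = 0.535). Over the 10 CAR and PXR targets the median was -0.14, and only 1 had an unadjusted p under 0.05. Cyp2b9 (0.50), Gsta1 (0.25) and Ugt1a1 (0.04) were higher, and the remaining targets of that list were lower. The median of the glucocorticoid receptor targets in this comparison was -0.36 beside 0.00024 over all genes. Of the 10, 4 (Per1, Tsc22d3, Sgk1 and Dusp1) were lower at an unadjusted p under 0.05. Over all genes, 6.03% met that threshold in either direction. The adjusted p by the quasi-likelihood test was 0.798 for Tsc22d3 and 0.827 for the others of these 4.

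**Figure D5:**
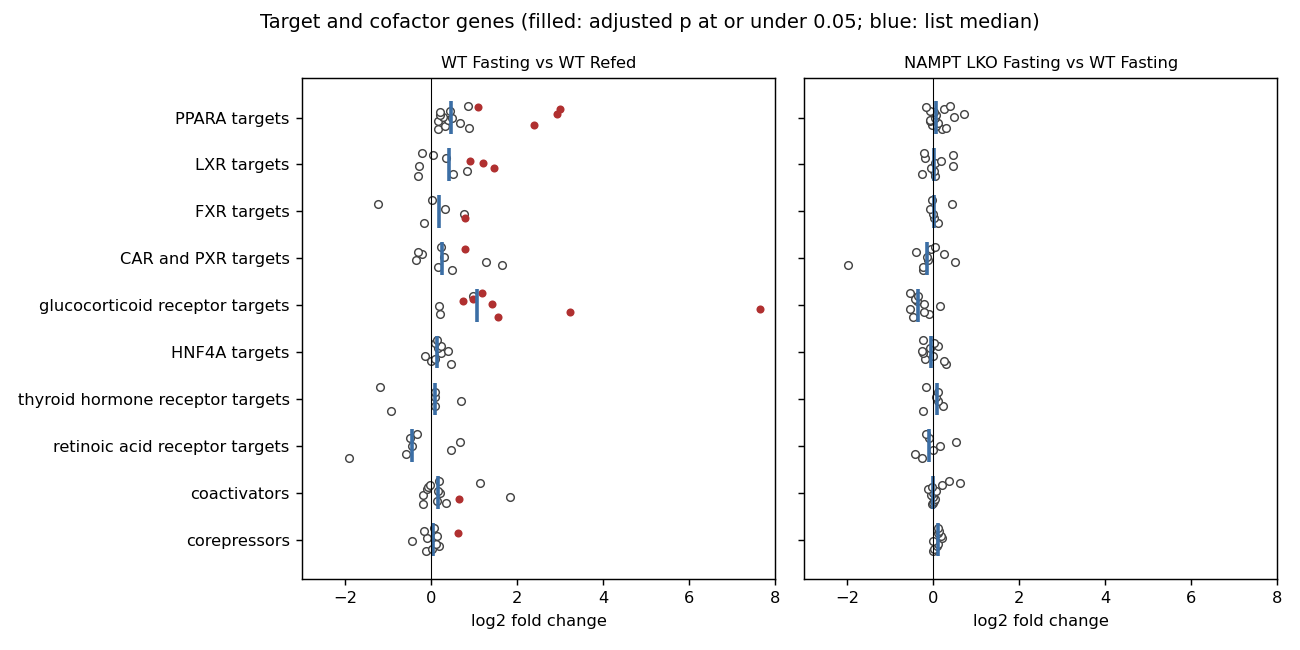
Log2 fold changes of the genes of each target or cofactor list in WT Fasting against WT Refed (left) and NAMPT LKO Fasting against WT Fasting (right), with the list median as a blue line and filled points for an adjusted p at or under 0.05. The glucocorticoid receptor list has 7 filled points and the PPARA list 4 on the left, and the lone point near -2.0 on the right is Cyp2b10.

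Of 13 coactivator genes tested 1 rose in WT Fasting against WT Refed, the acetyltransferase gene Kat2b (0.64 ± 0.13), and of 10 corepressor genes 1 rose, the NAD+-dependent deacetylase gene Sirt1 (0.63 ± 0.15, adjusted p = 0.0335). These shares are read against the 7.04% of all genes called and 2.68% called higher, and a single call says nothing particular about either list. Ppargc1a, the PPARA and HNF4A coactivator gene, had 1.13 ± 0.43 there (adjusted p = 0.149) and rose by 1.76 ± 0.42 (adjusted p = 0.0236) in the knockout against WT Refed. When WT Refed 1 or WT Refed 2 was left out, both Kat2b in the WT comparison and Ppargc1a in the knockout comparison missed the threshold. Without NAMPT LKO Fasting 4, Ppargc1a passed in the WT comparison too. Sirt1 missed it in the WT comparison when any one WT library, NAMPT LKO Fasting 2 or NAMPT LKO Fasting 3 was left out. Of the 4 clock receptor genes tested 0 passed in WT Fasting against WT Refed by the quasi-likelihood test. The count was 3 by limma voom, 0 by edgeR's exact test and 1 by DESeq2. It was 1 at an unadjusted p under 0.05, which 22.3% of all genes met. Of 4 further nuclear receptor genes tested 1 rose, Esrrg (1.12 ± 0.29), an orphan receptor close to Esrra. Esrrg also missed the threshold when any one of those same 7 libraries was left out. Esrra itself had a log2 fold change of -0.18 ± 0.32 (adjusted p = 0.797).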

How the data were processed

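Liver poly-A RNA was sequenced by the authors as single 50-base reads, aligned with STAR 2.5.1a and counted per gene with featureCounts 1.4.6-p5 on GRCm38, per the labels' processing notes. The study's methods name other versions of both tools, and the strand setting of the counting is not given in the sources used here. The deposited count is the number of reads per gene without normalization, and the deposited CPM and RPKM are that count scaled by the authors to the library total and, for RPKM, to exonic length. Per-sample columns of other series numbered 0.

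Library totals were 30603080 to 43434139 counts, and an SE or interval covers the spread between the sequenced mice. Genes of ribosomal RNA (355, up to 1.71% of counts) were removed, the 13444 genes exceeding 1 CPM in any library were tested, and TMM normalization with edgeR 4.0.16 (R 4.3.3) was followed by its quasi-likelihood test on all 10 libraries, with Benjamini-Hochberg adjustment over the genes tested and a threshold of 0.05. Values called CPM in the report are TMM-normalized unless a marker sum is given, which uses library-scaled CPM. The SE is the log2 fold change divided by the root of the test's F. In simulated data with 200 of 13444 genes changed, the test recovered 31% of changes of 1 log2 unit and 84% of 2 for WT Fasting against WT Refed, and 58% and 92% for NAMPT LKO Fasting against WT Fasting.

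Alternatives were limma 3.58.1 (voomWithQualityWeights, named in the study's methods), edgeR's exact test (named in its figure legend), DESeq2 1.42.0, other scalings and filters, fits of the compared groups alone, each library left out, and a replicate block. Members and gene lists were chosen with earlier results of these data known. Values per library were given for members called in WT Fasting against WT Refed or in NAMPT LKO Fasting against WT Fasting, for the 3 members with the lowest p in the latter, and for 10 receptors central to liver metabolism (Ppara, Nr1h3, Nr1h4, Nr0b2, Nr1i2, Nr1i3, Hnf4a, Nr3c1, Rxra, Thrb). Per list, up to 4 genes with the lowest adjusted p were named. Further members and listed genes were added after their values were seen. Promoter windows are from RefSeq (GRCm38.p6). Exon overlaps and transcript GC content are from GENCODE on GRCm38. Labels name separate mice by number only in the fasting groups, so p-values measure the spread between these libraries. No pair of libraries held the same counts within sampling noise (the lowest chi-square per gene was 31.2).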

Additional observations from a re-analysis of the deposited data

Results flagged for a closer look

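In the 5 NAMPT LKO Fasting livers, 5 of 32 values (31 receptor genes and Nampt) lay farther from the other 4 than Dixon's 95% limit of 0.71 for the gap over the range. Chance flags about 1 in 20 groups, or 1.6 of 32. The NAMPT LKO Fasting 5 library was the low one in 4 of these 5: Rxrb at 18.6 CPM (the others 33.3 to 36.8), Nr1h2 at 28.4 (58.7 to 63.1), Nr2f1 at 0.35 (1.08 to 1.28) and Nr2f6 at 20.6 (66 to 83.9). Nr2f1 had only 12 reads in that library, and passed the filter on low values only through the other 4 knockout livers. NAMPT LKO Fasting 5 was also the lowest library for 17 of the 32 genes. In the fifth, NAMPT LKO Fasting 4 was high for Nr3c1 at 79 CPM, the others being at 64 to 67.3.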

How the results depend on the processing

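With voomWithQualityWeights, the number of genes called was 3331 for WT Fasting against WT Refed (9 members) and 4281 for NAMPT LKO Fasting against WT Refed, and DESeq2 gave 1646 in the former. An unadjusted p gave 3002 genes and 9 members in WT Fasting against WT Refed, 811 genes and 2 members in NAMPT LKO Fasting against WT Fasting, and 3508 genes in NAMPT LKO Fasting against WT Refed. Fits of the compared groups alone gave 1627 genes in WT Fasting against WT Refed. In NAMPT LKO Fasting against WT Fasting, edgeR's exact test and DESeq2 gave 24 genes each, library size alone 2, filterByExpr 3 and no filter 17, with 0 members in each. A correction for the GC content of transcripts, chosen after seeing the data, gave 1429 genes in WT Fasting against WT Refed and 3 in NAMPT LKO Fasting against WT Fasting. Leaving out 1 library gave 106 to 2231 genes and 0 to 5 members for WT Fasting against WT Refed, 1 to 2 genes for NAMPT LKO Fasting against WT Fasting, and 207 to 2835 genes and 0 to 7 members for NAMPT LKO Fasting against WT Refed. The cause of these changes was not tested, and the fits of the last set also had fewer samples.

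Among the named receptors, differences near 0 between NAMPT LKO Fasting and WT Fasting changed sign. Nr1h4 (0.001) was at -0.11 with voomWithQualityWeights, -0.00028 with DESeq2, -0.028 with library size alone, -0.00033 with RLE, -0.0022 with filterByExpr, -0.011 with no filter and -0.033 with the GC correction. Rxra was at 0.024 with voomWithQualityWeights and 0.013 with the GC correction, Hnf4a at 0.094 and 0.053, and Nr0b2 at 0.35 with voomWithQualityWeights. Leaving out 1 library gave -0.15 to 0.16 for Hnf4a, -0.51 to 0.20 for Nr0b2, -0.094 to 0.082 for Nr1h4, -0.19 to 0.036 for Nr1i2, -0.12 to 0.026 for Nr2c2 and -0.097 to 0.0097 for Thrb, and -0.60 to 0.12 for Nr0b2 in WT Fasting against WT Refed.

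The fasting groups share the numbers 1 to 3, and deviations of same-numbered libraries correlated at 0.10, 0.078 and 0.097, each library correlating best with its own number, which is a hint from the data and not the design. With a replicate block on these 6 libraries, 0 genes were called and Nampt was at -2.78, missing the threshold on the adjusted p. Without the block the same libraries gave 0 genes and Nampt at -2.87. With the block and without it, Rxra was at 0.0081 and 0.0075, Nr1h4 at -0.027 and -0.025, and Nr0b2 at 0.37 and 0.17, and Hnf4a was at 0.0027 with the block.

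WT Refed had 2 libraries, so its spread rests mostly on the other groups. Genes under 1 CPM, Vdr and Hnf4g among them, were too shallow to compare.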
